A study of Mus musculus with 6 samples.

Results

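Chemokines and their receptors were followed in RNA sequencing of the mouse right atrium (RA) under volume overload (VO). The members were the protein-coding genes whose symbols begin with Ccl, Cxcl, Ccr or Cxcr and a number, together with Cx3cl1, Cx3cr1, Xcl1, Xcr1 and Ackr1 to Ackr4, and the rule used no measured value. It gave 62 of 54093 genes, of which 39 encode ligands and 23 encode receptors. These 62 rows carry 60 symbols, since Ccl21a and Ccl27a each also stand on a separate scaffold. All animals were wild-type C57BL/6 mice, male or female, operated on at P7, and RA tissue was collected at P21. In the VO group (n = 3 libraries) a fistula was made by pushing a needle through the abdominal aorta into the inferior vena cava, which returns arterial blood to the right heart. The sham group (n = 3 libraries) had sham surgery on the same day. The sources do not say whether a library held tissue from 1 animal or from several, so the p-values measure the spread between these libraries only.

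Chemokines are small secreted proteins that guide white blood cells along a gradient, and most are named by the spacing of their first cysteines as CC, CXC, CX3C or XC. They act on receptors of the G protein-coupled family on the surface of the responding cell, and several ligands often share a receptor. Atypical receptors bind chemokines without starting that signal, and remove or store them instead. In the heart, CCR2 marks monocytes and the macrophages that come from them, and CX3CR1 is found on resident macrophages and patrolling monocytes.

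Levels are given as FPKM, the fragments of a gene scaled by its length and by a size set for the library, so that levels of different genes can be compared. The libraries held 15963082 to 17237903 fragments on genes. VO 1, VO 3 and sham 1 stood apart from the rest in marker genes of some cell types. The summed FPKM of 12 macrophage markers, all of them above 0, was 176 to 248.5 in the sham libraries and 487, 198 and 231 in VO 1, VO 2 and VO 3, and 11 of the 12 were highest in VO 1. The 10 neutrophil markers summed to 1.24 to 12.6 in sham and to 78.2, 5.59 and 2.29 in VO, and all 10 were highest in VO 1. The 6 adipocyte markers summed to 0 to 1.06 in sham, to 0 in VO 1 and VO 2 and to 382.5 in VO 3, where Ucp1 of brown fat alone was at 254. Atrial cardiomyocyte markers were present throughout, at a sum of 12457 to 18592 in sham and of 5798, 11757 and 8383 in VO, with sham 1 the highest. The 6 platelet markers, all above 0, summed to 30.4, 3.16 and 6.63 in sham and to 16.6, 5.07 and 2.73 in VO. The part of these markers in the values below was not tested.

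Testing was limited to the 12627 genes that averaged 1 FPKM or more over all libraries, which kept 25 of the 62 members, 18 ligands and 7 receptors. Of the rest, 19 had a mean from 0.1 to under 1, 11 were above 0 and under 0.1, and 7 were at 0 in all 6 libraries. Those at 0 were Cxcr1, Cxcl3, Ccl19, Ccl20, Ccl21b, Ccl26 and Ccr6. Reads of Ccl19, Ccl21a, Ccl21b, Ccl27a and Ccl27b may be lost to or shared with near-identical copies, so their low levels are uncertain. The pseudogene Ccl19-ps3, which the rule leaves out, was at 0.595, 0.716 and 9.48 FPKM in the sham libraries and at 0.170, 6.82 and 5.07 FPKM in VO 1, VO 2 and VO 3.

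Promoter sequence is shown for members whose values carry the results below, so that the neighbours Cxcl9 and Cxcl10 can be read side by side and a neutrophil-attracting gene with a motif can be compared with both. Each line gives the 250 bases before the RefSeq start in GRCm38.p6, read 5′ to 3′ on the gene's strand. Capitals mark a match to the core of the interferon-stimulated response element (ISRE), which is 2 copies of GAAA with 2 bases between them, or to the NF-kB consensus, each searched on both strands. Cxcl10 lies at chr5:92348890-92349139 (- strand), Cxcl9 at chr5:92328080-92328329 (- strand) and Cxcl1 at chr5:90890995-90891244 (+ strand).
Cxcl10: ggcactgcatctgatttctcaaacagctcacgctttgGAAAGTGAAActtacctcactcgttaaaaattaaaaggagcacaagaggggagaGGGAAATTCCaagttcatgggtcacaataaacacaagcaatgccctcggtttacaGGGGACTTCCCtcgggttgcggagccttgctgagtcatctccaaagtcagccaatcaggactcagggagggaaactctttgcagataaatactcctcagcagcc
Cxcl9: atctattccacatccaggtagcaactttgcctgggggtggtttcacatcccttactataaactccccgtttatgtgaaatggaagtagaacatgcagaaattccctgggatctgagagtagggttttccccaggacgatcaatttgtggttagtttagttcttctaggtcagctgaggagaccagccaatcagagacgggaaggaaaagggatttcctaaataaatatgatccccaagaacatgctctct
Cxcl1: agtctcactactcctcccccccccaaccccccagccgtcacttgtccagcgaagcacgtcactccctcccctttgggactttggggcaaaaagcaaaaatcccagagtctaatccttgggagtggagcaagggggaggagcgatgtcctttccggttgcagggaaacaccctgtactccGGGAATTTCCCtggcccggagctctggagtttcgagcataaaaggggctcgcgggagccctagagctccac
In Cxcl10 the ISRE core stood 213 to 204 bases before the start, and NF-kB matches stood at 159 to 150 and at 104 to 94 bases, the latter being overlapping matches. Cxcl9 had no match in the window, and the NF-kB match of Cxcl1 stood at 71 to 61 bases. The ISRE core was present in 3 of 46 member promoters (Ccl19, Cxcl10 and Cxcl14) and in 3.46% of the 27025 genes with a promoter. The NF-kB consensus was present in 11 of 46 and in 8.23% of all genes. Besides Cxcl1 and Cxcl10 these were Cxcl2, Cxcl3, Ccl1, Ccl9, Ccl20, Ccr1, Ccr3, Ccr6 and Ackr2. The STAT motif TTCNNNGAA was found in 4 member promoters (8.13% of all genes) and the PU.1 core GAGGAAGT in 1, that of Cxcr3 (2.79% of all genes). A match is a description of the letters and not a bound site, and the lack of a match does not show that no site is present.

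The same window is given for the B cell attractant Cxcl13, which had the largest fold change among the tested members, and for the macrophage receptors Ccr2 and Cx3cr1. Cxcl13 lies at chr5:95956689-95956938 (+ strand), Ccr2 at chr9:124101933-124102182 (+ strand) and Cx3cr1 at chr9:120068297-120068546 (- strand).
Cxcl13: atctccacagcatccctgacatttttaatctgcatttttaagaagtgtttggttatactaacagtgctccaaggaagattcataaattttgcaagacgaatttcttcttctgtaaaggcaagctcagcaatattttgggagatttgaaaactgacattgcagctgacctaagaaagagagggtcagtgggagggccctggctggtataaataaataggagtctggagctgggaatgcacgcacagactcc
Ccr2: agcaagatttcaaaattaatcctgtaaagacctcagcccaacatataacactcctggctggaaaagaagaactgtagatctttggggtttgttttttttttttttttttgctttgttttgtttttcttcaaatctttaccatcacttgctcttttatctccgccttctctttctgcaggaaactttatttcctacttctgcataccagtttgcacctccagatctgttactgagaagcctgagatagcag
Cx3cr1: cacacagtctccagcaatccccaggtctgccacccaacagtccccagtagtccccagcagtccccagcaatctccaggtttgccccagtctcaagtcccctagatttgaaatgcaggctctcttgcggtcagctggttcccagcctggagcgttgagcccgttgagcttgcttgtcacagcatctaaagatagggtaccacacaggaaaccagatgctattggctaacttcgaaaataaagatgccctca
None of these 3 windows held a match to the 4 motifs. Ccl7 had no entry in the promoter table.

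No member differed between VO and sham past the threshold of the test, an adjusted p of 0.05. After adjustment over all 12627 genes with limma, 0 of the 25 tested members had an adjusted p under 0.05, beside 1 gene in all (0.00792% of genes tested). The study, which used DESeq2, reported many more differing genes at that threshold, with immune response terms among those higher in VO. The counts given here therefore belong to the limma fit of FPKM values. At an unadjusted p under 0.05, 4 members were higher in VO (Ccr2, Cx3cr1 and Ccl7 among them) and 0 were lower, where 3.89% of all genes were higher and 8.08% lower. The log2 fold change was above 0 in 22 of 25 members and in 48.5% of all genes, with a median of 0.46 for the members and -0.01 for all genes. By role the median was 0.45 for the 18 ligands and 0.71 for the 7 receptors. For 5 members every VO library lay above every sham library (Ccr2, Cx3cr1, Cxcl10 and Cxcl13 among them), which held for 8.25% of all genes, and for 0 members the reverse, which held for 12.9%. In bulk tissue, more cells of a type and more RNA per cell cannot be told apart.

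VO 1 was the highest library for most members. It had the highest level of the 6 libraries in 20 of the 25 tested members, against 25.4% of all genes, and in 10 of them it was at least double the next library, against 1.90% of all genes. Those 10 were Cxcl13, Ccl8, Ccl5, Cxcl10, Cxcl9, Ccl3, Ccl2, Cx3cr1, Ackr2 and Cxcl16. The filter took the mean over all 6 libraries, and Cxcl13, Ccl8 and Ccl3 would not have passed it without VO 1. That VO 1 was highest in these genes was therefore partly set by the filter. They also count among the 22 members with a log2 fold change above 0 and in the medians. Cxcl13 is also among the 5 members without overlap. VO 3 was highest in Cxcl12, Cxcr4 and Ccl12, as in 14.2% of all genes, and sham 1 in Ackr3 and Ccl27a, as in 29.0% of all genes. Without VO 1 the log2 fold change was above 0 in 17 of 25 members and in 48.9% of all genes, and the median was 0.26. Cxcl13, Ccl8 and Ccl3 had the largest of these values, at 1.38, 1.26 and 0.95. This count and median were thus also partly set by the filter. In the same fit 4 members had an unadjusted p under 0.05 in the higher direction (Cx3cr1, Cxcl10 and Ccr2 among them), beside 2.51% of all genes. Cxcl5 alone was lower at that threshold, beside 4.91% of all genes. In 5 members, Cxcl13 among them, VO 2 and VO 3 both lay above all sham libraries, as in 11.4% of all genes.

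**Figure D1:**
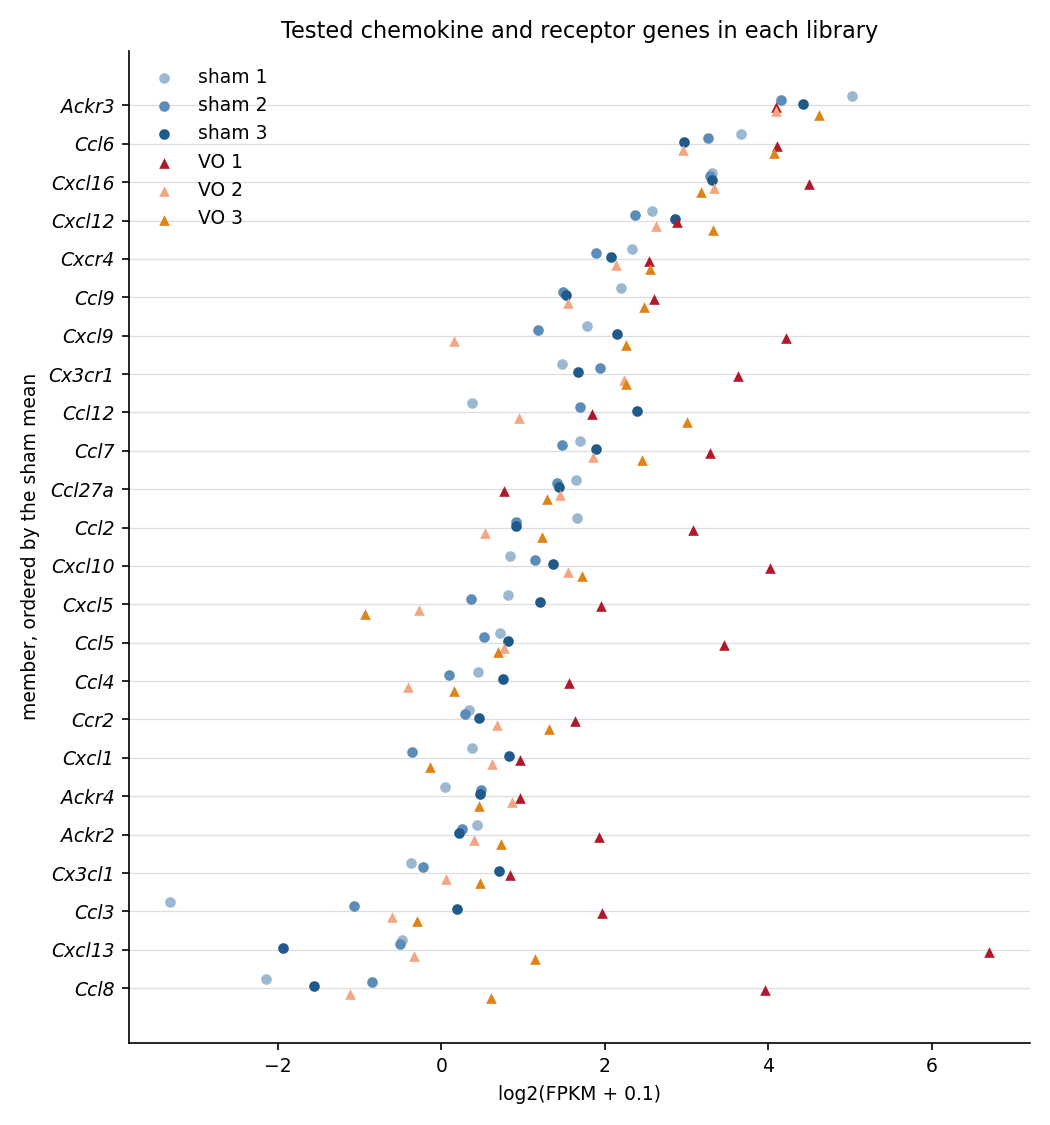
Level of each of 24 tested members in each library, as log2(FPKM + 0.1), with circles for sham and triangles for VO. VO 1 is the rightmost point for 19 members, farthest for Cxcl13, while Ackr3 at the top is highest in sham 1.

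Receptors of monocytes and macrophages had an unadjusted p under 0.05 in most settings. Ccr2, the receptor for CCL2, CCL7 and CCL12 on inflammatory monocytes (chr9:124101950-124113557), was at 1.16, 1.12 and 1.27 FPKM in sham 1, 2 and 3 and at 2.99, 1.51 and 2.38 FPKM in VO 1, 2 and 3. The VO values lay above all sham values, with VO 2 nearest to them. For Ccr2 the log2 fold change was 0.85 ± 0.27 (SE), with an unadjusted limma p of 0.0155 and an adjusted p of 0.404. It was 0.64 ± 0.26 without VO 1 (unadjusted p = 0.0464, adjusted p = 0.671).

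Cx3cr1, the fractalkine receptor (chr9:119901616-120069879), was at 2.68, 3.73 and 3.08 FPKM in sham and at 12.3, 4.62 and 4.68 FPKM in VO. VO 2 and VO 3 were close to each other and VO 1 was 2.63 times the next library. The log2 fold change of Cx3cr1 was 1.01 ± 0.37 (SE; unadjusted p = 0.0298 and adjusted p = 0.410 in limma), and it was 0.55 ± 0.17 without VO 1 (unadjusted p = 0.0147, adjusted p = 0.617).

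Across the 15 alternative settings the unadjusted p was under 0.05 in 15 for Ccr2, with log2 fold changes of 0.57 to 1.11. It was so in 13 for Cx3cr1, which missed it without sham 1 or without sham 3. The adjusted p lay between 0.243 and 0.693 for Ccr2 and between 0.274 and 0.693 for Cx3cr1.

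Macrophage and monocyte markers moved with these receptors in VO 1. To set both side by side, the summed FPKM of Ccr2 and Cx3cr1 was taken as a percentage of the summed macrophage markers, a measure chosen after the values were seen and given with no test. The percentage was 1.55, 2.48 and 2.48 in sham 1, 2 and 3 and 3.14, 3.09 and 3.06 in VO 1, 2 and 3, so that the groups did not overlap. Against the 8 monocyte markers, which summed to 21.5 to 24.7 FPKM in sham and to 61.8, 24.9 and 38.3 FPKM in VO, the groups overlapped. That percentage was 15.5, 22.6 and 17.7 in sham and 24.7, 24.6 and 18.5 in VO. In every library C1qa and C1qb were the highest macrophage markers. In sham 1 they were at 74.2 and 79.3 FPKM, above VO 2 (43.5 and 58.1 FPKM) and VO 3 (48.7 and 71.5 FPKM). The marker sum, and the percentage taken from it, thus depend heavily on these genes. Adgre1, Cd68 and Csf1r lay above all sham libraries in every VO library, as 8.25% of all genes did. Adgre1 was at 10.5, 9.76 and 10.4 FPKM in sham and at 62.1, 11.6 and 14.6 FPKM in VO. The other macrophage markers overlapped between the groups. Of the monocyte markers Fcgr4, Vcan and Ace also lay above, and the others overlapped.

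**Figure D2:**
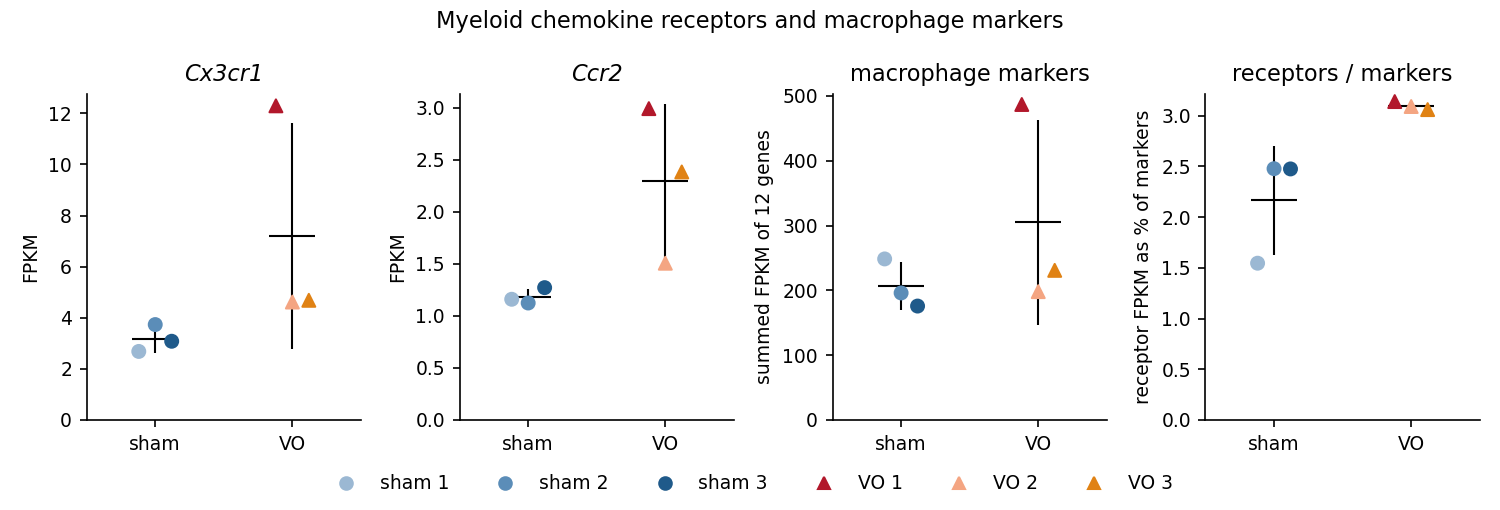
FPKM of Cx3cr1 and Ccr2, the summed FPKM of 12 macrophage markers, and both receptors as a percentage of those markers, for each library, with the mean (horizontal line) and SD (vertical line) of 3 libraries. The receptors lie higher in each VO library than in any sham library. For the marker sum, which C1qa and C1qb lead, VO 2 and VO 3 lie within the sham range of 176 to 248.5 FPKM, whose top is sham 1. Of its genes, not drawn singly, Adgre1, Cd68 and Csf1r also lie higher in each VO library than in any sham library. The other markers overlap.

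Other receptors of this class were under the filter. Ccr1, which binds CCL3, CCL5, CCL6 and CCL9, was at 0.946 ± 0.108 FPKM in sham and 0.938 ± 0.434 FPKM in VO (SD, n = 3), with VO 1 the lowest at 0.661 and VO 3 the highest at 1.44. Cxcr2, the neutrophil receptor for CXCL1 and CXCL5, was at 0.0974 ± 0.135 FPKM in sham and 0.225 ± 0.338 FPKM in VO, and reached 0.615 in VO 1 and 0.253 in sham 1. Neutrophil markers were highest in the same pair of libraries.

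Monocyte-attracting CC ligands form a run of genes on chromosome 11 (82035571 to 82305690, with Ccl2, Ccl7, Ccl11, Ccl12, Ccl8 and Ccl1). All 4 tested members of this class had a log2 fold change above 0, and 1 of them, Ccl7, had an unadjusted p under 0.05. Ccl7, a ligand of CCR2, was at 3.13, 2.68 and 3.60 FPKM in sham and at 9.63, 3.52 and 5.39 FPKM in VO 1, 2 and 3. VO 2 lay below sham 3, so the groups overlapped. The log2 fold change of Ccl7 was 0.85 ± 0.34 (SE; unadjusted p = 0.0402 and adjusted p = 0.411 in limma), and it was 0.47 ± 0.22 without VO 1 (unadjusted p = 0.0746, adjusted p = 0.705). For Ccl7 the unadjusted p was under 0.05 in 8 of the 15 alternative settings, with the highest at 0.111.

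Ccl2, the best known attractant of CCR2-bearing monocytes and a gene the study names, was at 3.05, 1.78 and 1.78 FPKM in sham and at 8.38, 1.35 and 2.24 FPKM in VO. VO 1 was above all other libraries, VO 2 was below them all and VO 3 was inside the sham range. For Ccl2 the log2 fold change was 0.46 ± 0.61 (SE; limma adjusted p = 0.735) and -0.28 ± 0.33 without VO 1. Ccl12, a mouse CCR2 ligand of the same run, was at 1.20, 3.13 and 5.15 FPKM in sham and at 3.49, 1.83 and 7.93 FPKM in VO. Its sham libraries spanned a wider range than the difference between the group means, which were 3.16 ± 1.97 and 4.41 ± 3.15 FPKM (SD, n = 3).

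Ccl8, another ligand of this run that acts mainly on CCR8 in mice, was at 0.126, 0.454 and 0.240 FPKM in sham and at 15.4, 0.360 and 1.43 FPKM in VO. These values stand for 1, 4 and 2 fragments in sham and 143, 3 and 12 fragments in VO. VO 1 was 10.8 times the next library, and VO 2 lay within the sham range. For Ccl8 the log2 fold change was 2.67 ± 1.20 (SE; limma adjusted p = 0.417), 1.26 ± 0.81 without VO 1 and 1.58 with a pseudocount of 1. Ccr8 itself was represented by 2 fragments in all 6 libraries together. Ccl1, the ligand of CCR8 at the end of the run, had 3 fragments in all.

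Ccl11 (eotaxin, an eosinophil attractant acting on CCR3) was at 0, 0.107 and 0 FPKM in sham and at 0.102, 0 and 3.82 FPKM in VO. VO 3 held 68 fragments of Ccl11 (95% exact Poisson interval 52.8 to 86.2, counting error only), against 2 or fewer in each of the other libraries. The scaffold copy of Ccl21a, a ligand of CCR7 and of the atypical receptor ACKR4 that is made by lymphatic endothelium and lymph node stroma, was also highest in VO 3, with 22 fragments there and 2 or fewer elsewhere. Adipocyte markers were at or near 0 in every library but VO 3. The 6 mast cell markers, all above 0, summed to 4.59 to 7.20 FPKM in sham and to 7.75, 4.83 and 14.9 FPKM in VO, and the 9 thymus markers, with Foxn1 at 0, to 0.551 to 0.820 FPKM in sham and to 0.611, 0.499 and 1.39 FPKM in VO. The adipocyte, mast cell and thymus sums were highest in VO 3, as were 6 of 6, 4 of 6 and 3 of 9 of their genes. Those thymus genes were Ptcra, Rag1 and Dntt, at 0.0948, 0.322 and 0.600 FPKM in VO 3. Psmb11 and Prss16 were at 0 in VO 3, and Arpp21, at 0.317 FPKM, lay below all sham libraries. The 6 lymphatic endothelium markers summed to 41.5 to 55.2 FPKM in sham and to 37.0, 50.0 and 53.3 FPKM in VO. The lymph node stroma markers summed to 2.97 to 4.53 FPKM in sham and to 4.55, 2.07 and 4.39 FPKM in VO. For both of these lists the VO 3 sum lay inside the sham range. Lyve1 was the highest gene of the first list in every library and Chst4 of the second. Of the lymphatic endothelium genes 3 of 6 were highest in VO 3 (Flt4, Reln and Mmrn1), and of the lymph node stroma genes 0 were. The part of these lists in the values of Ccl11 and Ccl21a was not tested.

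The other inflammatory CC ligands, which act on CCR1 and related receptors, gave 5 tested members, which lie together on chromosome 11 (83525778 to 83664683). All 5 were highest in VO 1, and none had an unadjusted p under 0.05. Ccl6, a macrophage CC chemokine that was the highest ligand in sham 1 and VO 3, was at 12.6, 9.47 and 7.70 FPKM in sham and at 17.1, 7.65 and 16.6 FPKM in VO. Its neighbour Ccl9 was at 4.48, 2.71 and 2.78 FPKM in sham and at 5.95, 2.82 and 5.49 FPKM in VO. For both genes VO 1 and VO 3 were above all sham libraries and VO 2 was not. The log2 fold changes were 0.41 ± 0.33 for Ccl6 (limma adjusted p = 0.575) and 0.47 ± 0.32 for Ccl9 (limma adjusted p = 0.517), and without VO 1 they were 0.21 and 0.28.

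Ccl5 (RANTES), made by T cells and natural killer (NK) cells, was at 1.54, 1.33 and 1.66 FPKM in sham and at 10.9, 1.60 and 1.52 FPKM in VO. VO 2 and VO 3 were within the sham range and VO 1 was 6.56 times the next library. Its log2 fold change was 0.96 ± 0.70 (SE; limma adjusted p = 0.543), and 0.05 ± 0.20 without VO 1. The 6 NK cell markers, all above 0, summed to 1.71 to 2.06 FPKM in sham and to 7.02, 1.53 and 2.88 FPKM in VO. The 10 T cell markers, all above 0, summed to 1.62 to 1.78 FPKM in sham and to 4.99, 1.43 and 2.63 FPKM in VO. Both lists were thus highest in the library with the most Ccl5, as were the macrophage, monocyte, neutrophil and B cell lists. In VO 3 the NK and T cell sums lay above all sham libraries, while Ccl5 did not.

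Ccl3, a ligand of CCR1, was at 0, 0.379 and 1.04 FPKM in sham and at 3.81, 0.561 and 0.714 FPKM in VO. The value of 0 in sham 1 allows up to 3 fragments, and VO 2 and VO 3 lay between sham 2 and sham 3. For Ccl3 the log2 fold change was 1.76 ± 1.07 (SE; limma adjusted p = 0.486). That value was 0.95 without VO 1 and 0.79 without sham 1, and it was 0.73 with a pseudocount of 1 and 2.86 with one of 0.01. Ccl4, a macrophage and T cell product, was at 1.27, 0.967 and 1.58 FPKM in sham and at 2.84, 0.651 and 1.01 FPKM in VO. Its log2 fold change was 0.00 ± 0.50 (SE; limma adjusted p = 1.00) and -0.56 ± 0.33 without VO 1. Ccl24, an eosinophil attractant under the filter, was at 0.795 ± 0.300 FPKM in sham and 0.727 ± 0.336 FPKM in VO (SD, n = 3).

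The interferon-inducible ligands Cxcl9 and Cxcl10, neighbours on chromosome 5 (92321347 to 92348889) that attract activated T cells through CXCR3, differed in order among the libraries, a difference that was not tested. Cxcl10 was at 1.68, 2.11 and 2.48 FPKM in sham and at 16.1, 2.83 and 3.19 FPKM in VO 1, 2 and 3. All VO values of Cxcl10 lay above all sham values. Its log2 fold change was 1.31 ± 0.62 (SE; unadjusted p = 0.0713 and adjusted p = 0.423 in limma), and 0.52 ± 0.20 without VO 1 (unadjusted p = 0.0400, adjusted p = 0.668). Cxcl9 was at 3.32, 2.17 and 4.34 FPKM in sham and at 18.5, 1.02 and 4.68 FPKM in VO. VO 2 was the lowest library for Cxcl9 and VO 1 the highest, and the fold change turned from 0.51 ± 0.91 on the log2 scale (SE; limma adjusted p = 0.803) to -0.50 ± 0.61 without VO 1. Of their promoter windows above, that of Cxcl10 held the ISRE core and NF-kB matches and that of Cxcl9 held neither. Other forms of these elements were not searched for, and a link between the motifs and the levels was not tested. Cxcl10 shares 5.91% of its exon bases with Art3.

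Cxcr3, their receptor, was under the filter at 0, 0.201 and 0 FPKM in sham and 1.18, 0.106 and 0.386 FPKM in VO. Ifng, the main inducer of Cxcl9 and part of the pathway list, was named after its values were seen. It was represented by 11 fragments in VO 1 (0.468 FPKM) and by 0 in the other 5 libraries, which allows up to 3 fragments in each.

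Neutrophil-attracting CXC ligands gave 2 tested members, both highest in VO 1. Cxcl5, a ligand of CXCR2, was at 1.66, 1.18 and 2.21 FPKM in sham and at 3.76, 0.724 and 0.424 FPKM in VO. VO 1 was above and VO 2 and VO 3 were below all sham libraries. For Cxcl5 the log2 fold change was -0.55 ± 0.71 (SE; limma adjusted p = 0.723), and -1.40 ± 0.37 without VO 1 (unadjusted p = 0.00837, adjusted p = 0.567). Cxcl1, also a CXCR2 ligand, was at 1.20, 0.681 and 1.67 FPKM in sham and at 1.85, 1.44 and 0.811 FPKM in VO, and its log2 fold change was 0.20 ± 0.41 (SE; limma adjusted p = 0.829). VO 2 and VO 3 lay inside the sham range for Cxcl1.

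Homeostatic ligands place cells in tissues at rest, and Cxcl13 stood out among them in 1 library. It attracts B cells through CXCR5 and lies at chr5:95956951-95961068. Cxcl13 was at 0.615, 0.605 and 0.160 FPKM in sham and at 103.6, 0.693 and 2.11 FPKM in VO 1, 2 and 3. These values rest on 11, 12 and 3 fragments in sham and on 2162, 13 and 40 fragments in VO. VO 1 was 49.0 times the next library, and VO 2 exceeded sham 2 by 1 fragment, within counting error (95% exact Poisson intervals 6.92 to 22.2 and 6.20 to 20.96).

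In VO 1 Cxcl13 made up 39.98% of the summed ligand level of 259 FPKM, while the ligands summed to 49.9 to 86.1 FPKM in the other 5 libraries and were led there by Ccl6 or Cxcl16. The log2 fold change of Cxcl13 was 3.48 ± 1.66 (SE; unadjusted p = 0.0737 and adjusted p = 0.425 in limma), and 1.38 ± 0.69 without VO 1 (unadjusted p = 0.0900, adjusted p = 0.705). The 8 B cell markers, all above 0, were each highest in VO 1. They summed to 5.46 to 8.71 FPKM in sham and to 41.9, 6.60 and 22.6 FPKM in VO, of which Ighm was 32.2, 2.37 and 18.6 FPKM. Cxcr5, the receptor of CXCL13, named after its level was seen, was at a mean of 0.0432 FPKM in sham and 0.0874 FPKM in VO, with 22 fragments in all.

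Cxcl12, which guides progenitor and endothelial cells through CXCR4, was at 5.84, 5.04 and 7.16 FPKM in sham and at 7.27, 6.06 and 9.92 FPKM in VO. Its receptor Cxcr4 was at 4.94, 3.63 and 4.11 FPKM in sham and at 5.70, 4.31 and 5.75 FPKM in VO. VO 2 lay inside the sham range for both. The log2 fold changes were 0.35 ± 0.21 for Cxcl12 (SE; limma adjusted p = 0.485) and 0.31 ± 0.17 for Cxcr4 (SE; limma adjusted p = 0.457). Ackr3, an atypical receptor that takes up CXCL12, was the highest member in sham at 23.8 ± 7.60 FPKM (SD, n = 3).

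Ackr3 was at 32.4, 17.8 and 21.3 FPKM in sham and at 16.9, 16.9 and 24.5 FPKM in VO, and its log2 fold change was -0.27 ± 0.25 (SE; limma adjusted p = 0.621). Without sham 1, its highest library, that value was -0.02. Ccl27a, a skin chemokine acting on CCR10, was the other homeostatic ligand above the filter. It was at 3.03, 2.56 and 2.61 FPKM in sham and at 1.60, 2.63 and 2.35 FPKM in VO, and its log2 fold change was -0.33 ± 0.21 (SE; limma adjusted p = 0.496) and -0.13 without VO 1. Only VO 1 and VO 3 lay below all sham libraries. Ccr10 was at 0.298, 0.403 and 0.498 FPKM in sham and at 0.639, 0.142 and 0.247 FPKM in VO.

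Membrane-bound ligands are made as transmembrane proteins and shed by proteases. Cxcl16, which binds CXCR6 on T cells, was at 9.81, 9.64 and 9.80 FPKM in sham and at 22.5, 9.99 and 8.94 FPKM in VO. The sham libraries lay close together at 9.75 ± 0.0946 FPKM (SD, n = 3), with VO 2 just above and VO 3 just below them. For Cxcl16 the log2 fold change was 0.37 ± 0.33 (SE; limma adjusted p = 0.603), and -0.04 ± 0.10 without VO 1. Of its exon bases 18.3% are shared with Zmynd15, and whether strand was used in counting is not given in the sources used here, so reads there may come from either gene. Cxcr6 was at 0.341 ± 0.109 FPKM in sham and at 1.77, 0.318 and 0.472 FPKM in VO.

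Cx3cl1 (fractalkine), the ligand of CX3CR1, was at 0.671, 0.753 and 1.53 FPKM in sham and at 1.68, 0.936 and 1.28 FPKM in VO, and its log2 fold change was 0.42 ± 0.38 (SE; limma adjusted p = 0.615) and 0.23 without VO 1. Sham 3 was the second highest library, so the ligand did not separate the groups as its receptor did. This difference between ligand and receptor was not tested.

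Among the other atypical receptors, Ackr2, which clears inflammatory CC chemokines, was at 1.25, 1.09 and 1.06 FPKM in sham and at 3.70, 1.22 and 1.56 FPKM in VO. VO 1 was 2.38 times the next library and VO 2 lay inside the sham range. For Ackr2 the log2 fold change was 0.71 ± 0.39 (SE; limma adjusted p = 0.461), and 0.26 ± 0.24 without VO 1. Ackr4, which clears CCL19, CCL21 and CCL25, was at 0.932, 1.29 and 1.29 FPKM in sham and at 1.84, 1.72 and 1.28 FPKM in VO, and its log2 fold change was 0.43 ± 0.25 (SE; limma adjusted p = 0.469). Here VO 1 and VO 2 were above all sham libraries and VO 3 was not, and 8.90% of the exon bases are shared with Acad11. Ackr1, the red cell and venule receptor that binds CCL2, CCL5 and CXCL1, was at 0.207 ± 0.220 FPKM in sham and 0.310 ± 0.225 FPKM in VO (SD, n = 3), and shares 25.7% of its exon bases with Cadm3.

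**Figure D3:**
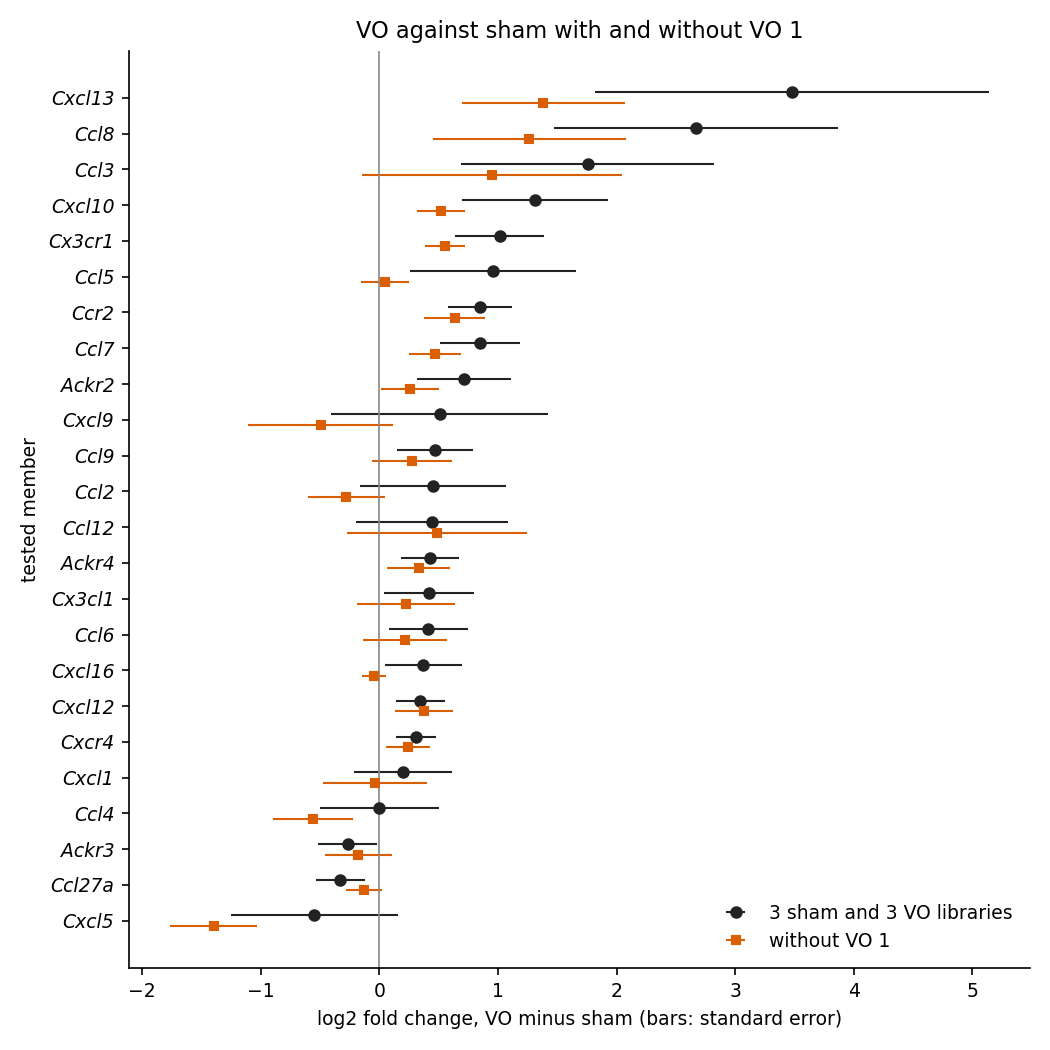
Log2 fold change, VO minus sham, of 24 tested members with its standard error, for all 6 libraries (circles) and without VO 1 (squares). Without VO 1 the values of Ccl2, Cxcl9, Cxcl16, Cxcl1 and Ccl4 lie below 0 and that of Cxcl5 falls to -1.40, while Cx3cr1 and Ccr2 stay at 0.55 and 0.64.

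Levels were also summed over all members of each role. The 8 myeloid receptors summed to 7.18, 7.57 and 7.19 FPKM in sham and to 22.6, 9.31 and 11.7 FPKM in VO, with no overlap. The homeostatic ligands summed to 9.52 to 11.7 FPKM in sham and to 116, 11.6 and 19.6 FPKM in VO, the VO 1 sum being mostly Cxcl13. The atypical receptors, led by Ackr3, summed to 34.7, 20.2 and 24.1 FPKM in sham and to 22.7, 20.0 and 27.9 FPKM in VO. All 62 members together summed to 82.4 to 106 FPKM in sham and to 315, 84.5 and 133 FPKM in VO.

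**Figure D4:**
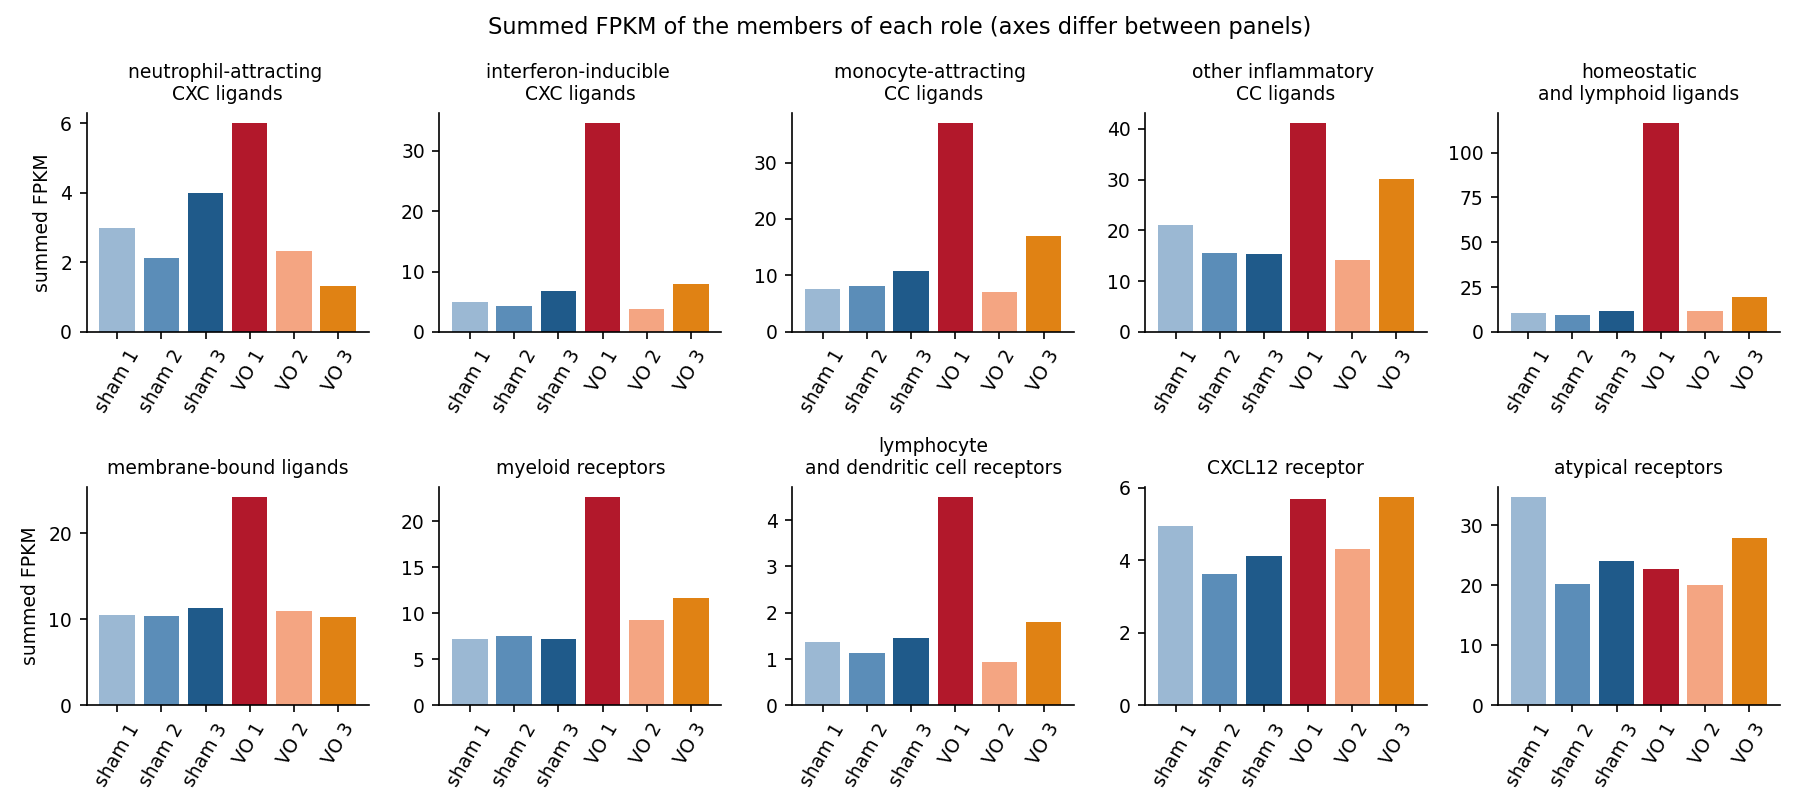
Summed FPKM of the members of each of 10 roles in each library, with a separate axis in each panel. VO 1 is the highest bar except for the CXCL12 receptor and the atypical receptors, and the myeloid receptors are higher in all 3 VO libraries than in sham.

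Of the 19 members with a mean from 0.1 to under 1, VO 1 was highest in 9 and VO 3 in 5. Ccl22, a ligand of CCR4 that ACKR2 also binds, was at 0.151 ± 0.0734 FPKM in sham and 0.333 ± 0.145 FPKM in VO. Ccl25, a thymic and gut ligand of CCR9 and ACKR4, was at 0.488 ± 0.0810 FPKM in sham and 0.488 ± 0.0539 FPKM in VO. The 11 members above 0 and under 0.1 had 1 to 41 fragments each over the 6 libraries, too few to compare the groups.

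**Figure D5:**
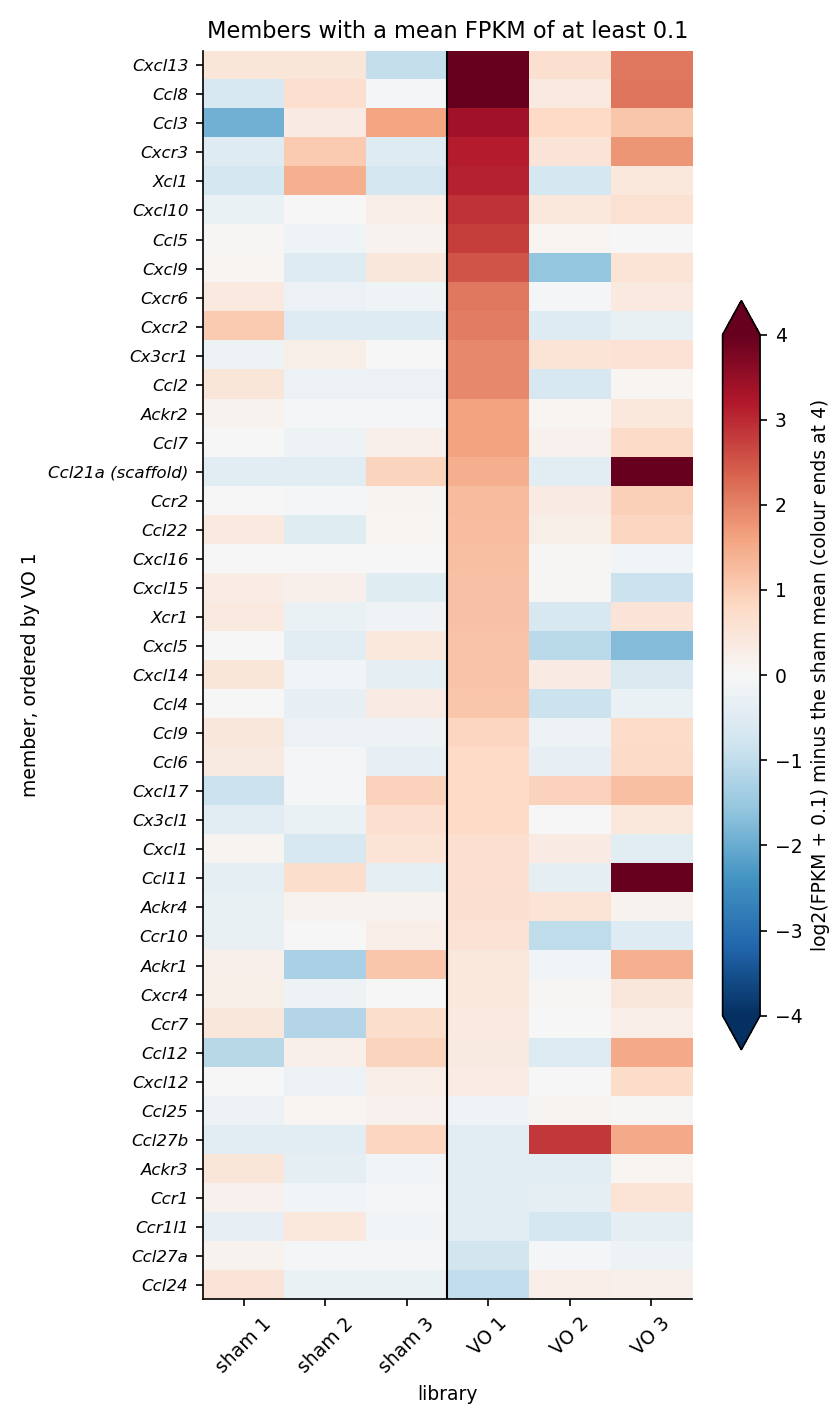
Each of 43 members with a mean FPKM of at least 0.1 (rows, ordered by VO 1) in each library (columns), as log2(FPKM + 0.1) minus the mean of the 3 sham libraries, with the colour ending at 4. Red is higher and blue lower, and the VO 1 column is red for most rows, while Ccl11 and the scaffold copy of Ccl21a are dark red in VO 3.

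The other genes of the chemokine pathway, a list of signalling, adhesion, protease and inducer genes, held 66 genes, of which 57 were tested. The log2 fold change was above 0 in 49 of them, beside 48.5% of all genes, with a median of 0.30, and 0 passed the adjusted threshold in limma. At an unadjusted p under 0.05, 5 were higher in VO and 1 was lower, beside 3.89% and 8.08% of all genes. Without VO 1 these counts were 3 (Il1b, Cmklr1 and Rgs2) and 1 (Vcam1), beside 2.51% and 4.91% of all genes, and the median was 0.13. Il1b, Itgam, Dock2, Tnfaip3, Sele, Itga4 and Pik3r5 would not have passed the filter without VO 1, and all had a log2 fold change above 0. The counts and medians of this list, with and without VO 1, were therefore partly set by the filter. Il1b, an inflammatory cytokine that induces many chemokines, was at 0.303, 0.213 and 0.258 FPKM in sham and at 4.62, 0.836 and 1.56 FPKM in VO. For Il1b these values rest on 9, 7 and 8 fragments in sham and on 160, 26 and 49 fragments in VO. Every VO library lay above every sham library, as for 8.25% of all genes, and Il1b passed the filter only through VO 1. Its log2 fold change was 2.45 ± 0.62 (SE; limma adjusted p = 0.364) and 1.81 without VO 1.

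Cmklr1, the chemerin receptor of macrophages, was at 2.96 ± 0.534 FPKM in sham and 4.40 ± 0.469 FPKM in VO (SD, n = 3), and its log2 fold change was 0.57 ± 0.17 (SE; limma adjusted p = 0.404). The chemokine-cutting proteases Mmp14 and Mmp2 had log2 fold changes of 0.61 ± 0.22 and 0.33 ± 0.14, and Ifngr1, a chain of the interferon-gamma receptor, one of 0.33 ± 0.14 (SE; limma adjusted p = 0.409, 0.414 and 0.414). Without VO 1 the values of Mmp14, Mmp2 and Ifngr1 were 0.39, 0.20 and 0.33, and none of them had an unadjusted p under 0.05 in limma. Nfkbia, which encodes an inhibitor of NF-kB and was the lower gene over all 6 libraries, was at 55.9 ± 8.91 FPKM in sham and 41.1 ± 5.25 FPKM in VO (SD, n = 3). Its log2 fold change was -0.44 ± 0.16 (SE; limma adjusted p = 0.406) and -0.34 without VO 1, where it missed the unadjusted threshold. Rgs2, a regulator of G protein signalling, and Vcam1, an endothelial adhesion molecule, both named after their values were seen, passed it without VO 1 but not over all 6 libraries, with log2 fold changes of 0.38 and -0.38 against 0.18 and -0.16.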

How the data were processed

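A total of 6 RA libraries from P21, 3 sham and 3 VO, were sequenced. Per the labels and the study's methods, the authors aligned reads with HISAT2 2.0.5, counted them per gene with featureCounts 1.5.0-p3 and deposited FPKM values, and the submitters' processing notes name GRCm38. How reads matching several genes were counted, and whether strand was used, is not given in the sources used here. The table held 54093 genes, and 1 incomplete last line was left out. The values came out as whole fragments (100% within 0.01), which gave the depth. Gene coordinates were identical in GENCODE M21 (GRCm38) for all 62 members.

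FPKM values were scaled by median of ratios, whose factor came out as 1 in all 6 libraries, so the values did not change. The library size implied by the values differed from the fragments on genes. It was 1.56e+07 against 16494342 in sham 1 and 1.81e+07 against 16852482 in VO 1. Genes with a mean of at least 1 were fitted as log2(FPKM + 0.1) with limma 3.58.1 (lmFit, eBayes with trend) in R 4.3.3. The p-values were 2-sided and adjusted after Benjamini and Hochberg over 12627 genes. Fold changes are on that scale, which understates changes of low genes. No count model was the main test because the file holds FPKM, and the counts the authors tested with DESeq2 were not used here. The scripts were tested on simulated data. An exact permutation of 3 against 3 libraries cannot go below p = 0.1.

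Members and lists were chosen with earlier results of these data known. Every member with a mean of at least 1 was named with its values, members from 0.1 to under 1 as partners of a tested member, pathway genes at an unadjusted p under 0.05 (at most 5 in each direction), and Ccl2 always. The single values of 1 member are not reported here, though counts and sums include it. Promoters came from RefSeq (GRCm38.p6), with an entry for 46 of 60 member symbols. The 15 alternatives were other pseudocounts, filters and scalings, no trend, voom on recovered fragments, a replicate block, and each library left out.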

Additional observations from a re-analysis of the deposited data

How the results depend on the processing

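No member reached an adjusted p under 0.05 in any of the 15 alternatives. Among all genes that count was 2 with a pseudocount of 1, 3 with a mean FPKM filter of 0.1, 3 without the trend, 0 with quantile normalization and 0 without any single library. Genes higher at an unadjusted p under 0.05 numbered 840 with no filter and 1085 on the TPM scale, which moved the median of all genes to 0.13, and 486 were then lower. On the TPM scale 7 members and 10 pathway genes were higher, and 0 pathway genes were lower on the TPM scale or with quantile normalization. Voom on recovered fragments called 3 members. The replicate numbers did not pair the libraries, since same-numbered libraries deviated together with correlations of -0.11, 0.01 and -0.03, and 0 of 6 libraries correlated best with the other group's library of the same number. With the replicate block 6 members, 324 genes in all and 3 pathway genes were higher, 608 genes and 0 pathway genes were lower, and the adjusted count was 0.

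Leaving out each library in turn gave 281 to 784 genes higher and 574 to 1214 lower. Members higher ranged from 2 (without sham 2 or without sham 3) to 13 (without VO 2) and members lower from 0 to 1 (without VO 1), and their median log2 value from 0.26 (without VO 1) to 0.94 (without VO 2). Pathway genes higher ranged from 2 (without sham 3) to 20 (without VO 2) and lower from 0 to 1, with a median of 0.13 to 0.36. Of 25 members, 18 kept their direction throughout. The others changed sign: Ccl2 (-0.28 to 1.00), Cxcl9 (-0.50 to 1.53), Cxcl16 (-0.045 to 0.62), Cxcl5 (-1.40 to 0.041), Cxcl1 (-0.12 to 0.51), Ccl12 (-0.11 to 0.94) and Ccl4 (-0.56 to 0.42), the last also with a pseudocount of 0.01 (-0.014) and with quantile normalization (-0.081). The cause of these changes was not tested. Members with few fragments could not be compared at this depth.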

Other observations

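Chemokines outside the naming rule were also measured as members of the pathway list. Pf4, the platelet chemokine CXCL4, was at 50.9, 18.1 and 20.4 FPKM in sham 1, 2 and 3 and at 35.7, 20.4 and 27.6 FPKM in VO 1, 2 and 3. Ppbp, the platelet chemokine CXCL7, was at 41.9, 4.07 and 8.28 FPKM in sham and at 23.0, 4.42 and 2.75 FPKM in VO. Both were highest in sham 1 and second highest in VO 1, and the 6 platelet markers summed to 30.4 FPKM in sham 1 and 16.6 FPKM in VO 1 against 2.73 to 6.63 FPKM in the other 4 libraries. Neither gene differed between the groups at an adjusted p under 0.05 in limma (0.975 for Pf4 and 0.730 for Ppbp). These genes were named after their values were seen.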
